A study of Caenorhabditis elegans with 6 samples.

Results

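The 9 genes described here, cbd-1, egg-1, egg-2, egg-3, chs-1, cpg-1, cpg-2, perm-2 and perm-4, encode proteins that build the eggshell of Caenorhabditis elegans or act when the oocyte turns into an embryo at fertilization. They were chosen by name, and every probe set that the array platform annotates to one of them was taken. This gave 16 of the 22625 probe sets, each annotated to 1 gene, for 9 of the 17118 genes that have a probe set of their own. The animals were whole worms of the N2 (Bristol) wild-type strain, which the labels give as L4 larvae. In the first group, 3 arrays carry RNA from worms exposed to GYY4137, a compound that gives off hydrogen sulfide slowly, and in the second group 3 arrays carry RNA from control worms. The protocol text, identical for all 6 arrays, gives 100 uM of the compound for 48 h in liquid medium followed by 12 h on plates, so how the controls were handled is not given in the sources used here. Nothing in the labels says that replicates came from separate cultures, so p-values reflect only how these samples vary, and that variation may be technical.

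The eggshell is made by the oocyte and the newly fertilized egg. Before fertilization a vitelline layer coats the oocyte, and CBD-1, a protein with many chitin-binding domains, organizes it: one complex joins CBD-1 to PERM-2 and PERM-4, and another joins it to EGG-1 and EGG-2, oocyte surface proteins with LDL-receptor repeats that are needed for sperm entry. EGG-3 anchors the chitin synthase CHS-1 at the oocyte cortex and is needed for egg activation, when meiosis is completed and cortical granules are released. CHS-1 then makes the chitin layer, and the chondroitin proteoglycans CPG-1 and CPG-2, carried in the granules, form the layer beneath it.

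The values are log2 values made by GCRMA, and a probe set was tested when it was above 4 on at least 3 of the 6 arrays. Of the 16 probe sets 15 were tested, and each of the 9 genes had at least 1 of these. The probe set left out, 1 of 4 for perm-4, lay below 4 on every array. Where a gene had several tested probe sets, the brightest on average stands for it, and the others are given beside it. Of these 9 probe sets, 4 are of the type that reads 1 gene (egg-1, egg-2, chs-1 and cpg-1) and 5 are of the _s_at or _x_at types, which can read related transcripts. The perm-4 probe set left out is the only perm-4 probe set of the type that reads 1 gene. A level on one probe set cannot be set against a level on another, so genes are compared through their differences between groups.

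None of the 9 genes passed the test between GYY4137 and control arrays. At a Benjamini-Hochberg adjusted p under 0.05 from limma, fitted over all 8053 tested probe sets, 0 of 9 were called, against 1.50% of all tested probe sets. At an unadjusted p under 0.05 there were 3 (egg-1, egg-2 and egg-3), where 17.7% of all tested probe sets reached that level. The GYY4137 mean was lower for 8 genes and higher for 1, perm-4, while 57.1% of all tested probe sets had a lower GYY4137 mean. The median difference over the 9 genes was -0.29 on the log2 scale, against -0.04 over all tested probe sets, and single genes ran from -0.54 for chs-1 to 0.31 for perm-4. For 4 genes (egg-1, egg-2, egg-3 and cpg-2) every GYY4137 array lay below every control array, a pattern found in 15.6% of all tested probe sets. For 1 gene, perm-4, every GYY4137 array lay above every control array, as in 13.4% of all tested probe sets. Whole worms were measured, so fewer oocytes and less RNA per oocyte cannot be told apart.

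One array stood apart. Across the tested probe sets, GYY4137 replicate 3 had Pearson correlations of 0.940 to 0.965 with the other 5 arrays, against 0.979 to 0.993 among those 5. Where leaving it out moved a difference of these genes or of a gene named from the related lists by more than 1.5 times, or changed its call or sign, the value without it is given as well. Without this array the median difference over the 9 genes was -0.20.

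**Figure D1:**
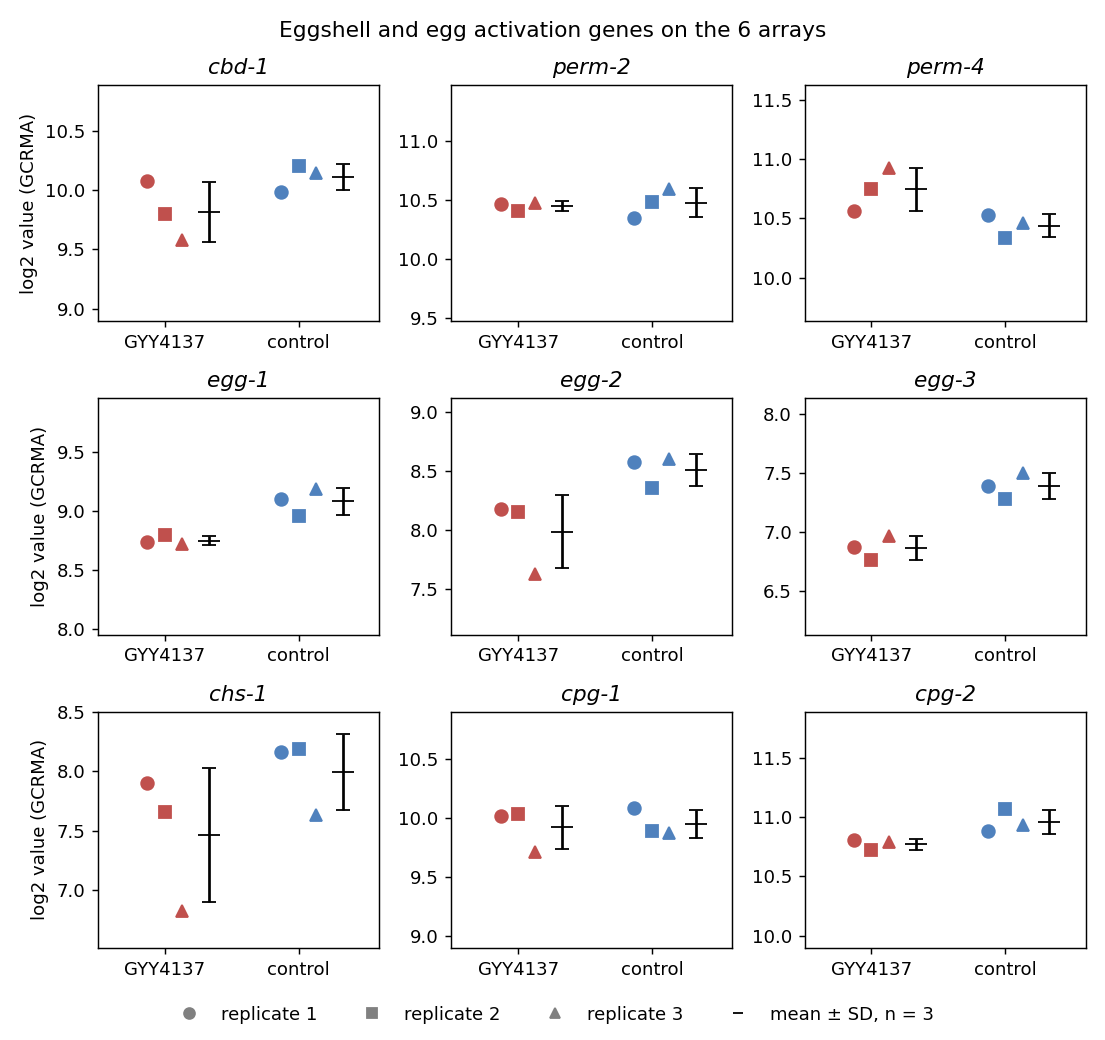
The log2 value of each gene on the 3 GYY4137 arrays (left, red) and the 3 control arrays (right, blue), with marker shapes for replicate numbers and bars for the mean ± SD (n = 3). Every panel spans 2 log2 units; egg-1, egg-2, egg-3 and cpg-2 have no overlap with GYY4137 lower, perm-4 has none with GYY4137 higher, and GYY4137 replicate 3 is the lowest array for cbd-1, egg-1, egg-2, chs-1 and cpg-1, by a narrow margin for egg-1.

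The oocyte surface and egg activation genes egg-1, egg-2 and egg-3 had the smallest p-values of the 9. Egg-3, which encodes a protein of the tyrosine phosphatase family without the residues for catalysis, had log2 values of 6.88, 6.76 and 6.97 on the GYY4137 arrays, against 7.39, 7.28 and 7.50 on the control arrays. All 3 GYY4137 values lay below the lowest control value, and the gap was larger than the spread within either group. The group means were 6.87 ± 0.10 and 7.39 ± 0.11 (SD, n = 3 each), a difference of -0.52 ± 0.12 (standard error from limma, 95% confidence interval -0.79 to -0.25). On the linear scale this is -30.4%, with an interval of -42.3% to -16.1%. The adjusted p was 0.0839 (limma), and its p ranked 224 of the 8053 tested probe sets.

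Egg-3 passed when GYY4137 replicate 3 was left out, with a difference of -0.57 and an adjusted p of 0.0242 (limma). It was then the only one of the 9 genes called, where 4.73% of all tested probe sets were called. On that array egg-3 was 0.15 higher than on average over GYY4137 replicates 1 and 2, so it was not among the genes that were low there. Over the other 5 arrays left out in turn the difference ran from -0.58 to -0.47 and the adjusted p from 0.144 to 0.303 (limma). With a threshold of 0.10 in place of 0.05, egg-3 was again the only one called, beside 3.32% of all tested probe sets.

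Egg-1 had values of 8.74, 8.79 and 8.71 on the GYY4137 arrays and 9.10, 8.96 and 9.19 on the control arrays. The GYY4137 arrays lay close together and all below the controls, with GYY4137 replicate 3 near the other GYY4137 arrays. The means were 8.75 ± 0.04 and 9.08 ± 0.12 (SD, n = 3 each), and the difference was -0.33 ± 0.11 (limma adjusted p = 0.205, 95% confidence interval -0.59 to -0.08).

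Egg-2, which acts together with egg-1 and lies elsewhere on the same chromosome (III), had values of 8.18, 8.15 and 7.63 on the GYY4137 arrays and 8.57, 8.36 and 8.60 on the control arrays. The groups did not overlap, and GYY4137 replicate 3 was the lowest array by a wide margin. The difference was -0.52 ± 0.17 (limma adjusted p = 0.205, 95% confidence interval -0.93 to -0.12), and it was -0.34 without GYY4137 replicate 3 (adjusted p = 0.143). The egg-2 to egg-1 difference within arrays averaged -0.76 ± 0.29 on the GYY4137 arrays and -0.57 ± 0.04 on the control arrays (SD, n = 3 each). This is a change of -0.19, with an exact two-sided permutation p of 0.3. It came mostly from GYY4137 replicate 3, at -1.09. GYY4137 replicates 1 and 2, at -0.56 and -0.64, lay near the control arrays, at -0.52, -0.60 and -0.58. The smallest p that 3 arrays against 3 allow is 0.1.

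With limma's array weights, which give a noisy array less say, egg-1, egg-2 and egg-3 were called (3 of 9 genes), at adjusted p of 0.0303, 0.0196 and 0.00120. That setting called 17.2% of all tested probe sets. The differences were then -0.30, -0.39 and -0.60.

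Chs-1, the chitin synthase of the eggshell, had the largest negative difference of the 9 and the widest spread. Its values were 7.90, 7.66 and 6.82 on the GYY4137 arrays and 8.17, 8.19 and 7.63 on the control arrays. The groups overlapped: control replicate 3 lay below both GYY4137 replicate 1 and GYY4137 replicate 2, and GYY4137 replicate 3 lay far below every other array. The difference was -0.54 ± 0.29 (limma adjusted p = 0.366), with a 95% confidence interval of -1.22 to 0.15. Without GYY4137 replicate 3 it was -0.22 (adjusted p = 0.550), and without GYY4137 replicate 1 it was -0.75. Among the 9 genes it moved most when an array was left out. With the replicate number as a block its standard error was 0.15 (limma adjusted p = 0.167). The within-array difference between chs-1 and egg-3, whose proteins work together, averaged 0.59 ± 0.64 on the GYY4137 arrays and 0.60 ± 0.42 on the control arrays (SD, n = 3 each, exact permutation p = 0.9).

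The vitelline layer genes cbd-1, perm-2 and perm-4 had differences of different sign, and none passed. Cbd-1 had values of 10.08, 9.80 and 9.58 on the GYY4137 arrays and 9.99, 10.20 and 10.14 on the control arrays. GYY4137 replicate 1 lay within the control range and the other GYY4137 arrays below it. The difference was -0.29 ± 0.15 (limma adjusted p = 0.342, 95% confidence interval -0.65 to 0.06), and -0.17 without GYY4137 replicate 3. A second cbd-1 probe set, of the type that reads 1 gene, gave -0.20 ± 0.15.

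Perm-2 was nearly level, with 10.47, 10.41 and 10.48 on the GYY4137 arrays and 10.35, 10.48 and 10.60 on the control arrays. All GYY4137 values lay inside the control range. The difference was -0.03 ± 0.11 with a 95% confidence interval of -0.29 to 0.23 (limma adjusted p = 0.910), and the second perm-2 probe set gave -0.01 ± 0.13. Its sign turned under median centring (0.05) and without control replicate 3 (0.03).

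Perm-4, whose protein partners with PERM-2 in the vitelline layer and whose gene is next to perm-2 on chromosome IV, was the only one of the 9 with a higher GYY4137 mean. Its values were 10.56, 10.75 and 10.93 on the GYY4137 arrays and 10.53, 10.33 and 10.46 on the control arrays. The groups did not overlap, but the lowest GYY4137 value and the highest control value lay close together, and GYY4137 replicate 3 was the highest array. The means were 10.75 ± 0.18 and 10.44 ± 0.10 (SD, n = 3 each), and the difference was 0.31 ± 0.13 (limma adjusted p = 0.283, 95% confidence interval -0.00038 to 0.61).

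The other tested perm-4 probe sets showed the same direction. On the first, the values were 9.85, 9.73 and 10.07 on the GYY4137 arrays and 9.53, 9.51 and 9.43 on the control arrays, a difference of 0.39 ± 0.12 (limma adjusted p = 0.190). On the second, they were 8.28, 8.59 and 8.99 on the GYY4137 arrays and 8.12, 8.25 and 8.12 on the control arrays, a difference of 0.46 ± 0.18 (limma adjusted p = 0.261). The groups did not overlap on any of the 3 tested perm-4 probe sets. All 3 are of the types that can read related transcripts. The only perm-4 probe set of the type that reads 1 gene was below the floor and not tested. It read 3.03 ± 0.21 on the GYY4137 arrays and 2.86 ± 0.09 on the control arrays (SD, n = 3 each), with overlap. The higher values therefore rest on probe sets that may read other transcripts too. Without GYY4137 replicate 3 the difference on the representing probe set was 0.21 (adjusted p = 0.350), and with the mean over the probe sets of the gene it was 0.39 (adjusted p = 0.216).

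Whether perm-4 differed from its partners was tested within arrays. Perm-4 minus perm-2 averaged 0.30 ± 0.18 on the GYY4137 arrays and -0.04 ± 0.19 on the control arrays (SD, n = 3 each), a change of 0.33 with an exact two-sided permutation p of 0.2. Perm-4 minus cbd-1 averaged 0.93 ± 0.43 on the GYY4137 arrays and 0.33 ± 0.21 on the control arrays, a change of 0.60 with an exact permutation p of 0.2. In all 5 pairs were compared in this way, chosen after the values were seen, and the adjusted p over them was 0.5 for 4 pairs and 0.9 for 1 (exact permutation test, Benjamini-Hochberg). With 3 arrays against 3 these tests could not fall below 0.1, so they do not decide whether perm-4 and its partners differ, and their opposite signs are given as a description of these arrays.

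**Figure D2:**
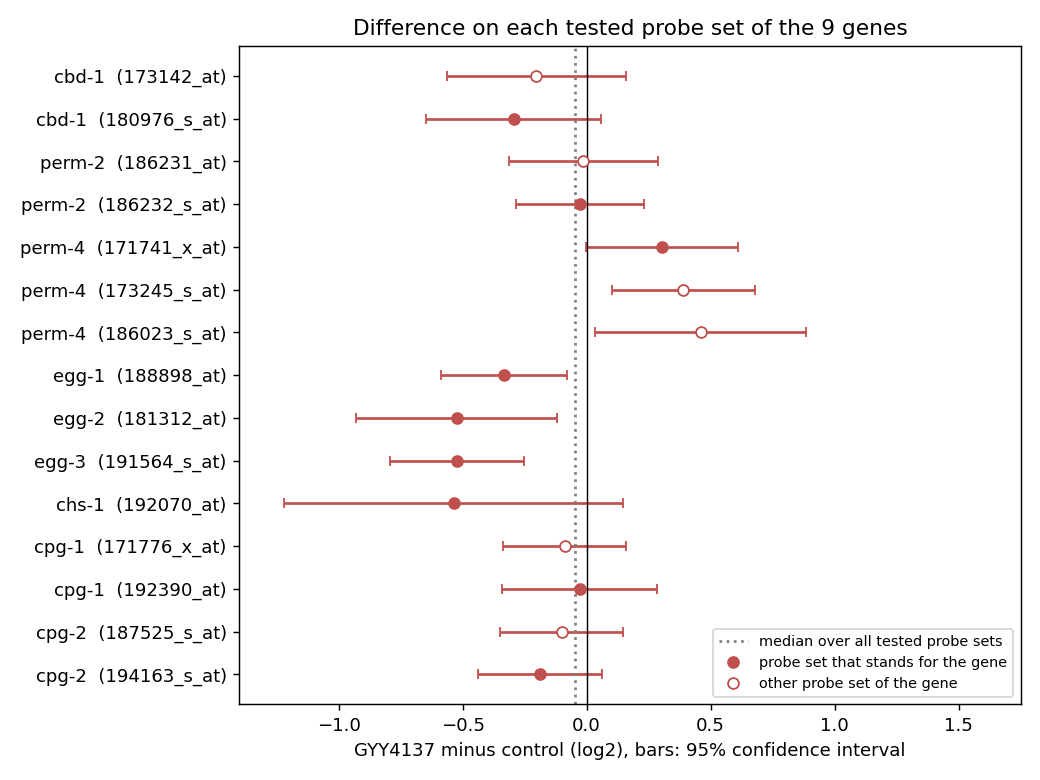
The difference of GYY4137 minus control (log2, horizontal axis) for each of the 15 tested probe sets, with 95% confidence intervals from limma; filled points stand for the gene and open points are its other probe sets. The 3 perm-4 probe sets lie right of 0 (0.31 to 0.46), egg-1, egg-2 and egg-3 lie left of it with intervals that do not reach 0, and the dotted line marks the median over all tested probe sets, -0.04.

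The proteoglycan genes showed the smallest differences beside perm-2. Cpg-1 had values of 10.02, 10.03 and 9.71 on the GYY4137 arrays and 10.08, 9.89 and 9.87 on the control arrays. GYY4137 replicate 3 was the lowest array and the other GYY4137 arrays lay within the control range. The difference was -0.03 ± 0.13 (limma adjusted p = 0.924, 95% confidence interval -0.34 to 0.28), and it was 0.08 without GYY4137 replicate 3. Its sign also turned in other settings: without control replicate 1 (0.04), with array weights (0.02) and with median centring (0.04). A second cpg-1 probe set, of the _x_at type, gave -0.09 ± 0.11.

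Cpg-2 had values of 10.81, 10.72 and 10.79 on the GYY4137 arrays and 10.88, 11.07 and 10.93 on the control arrays. All GYY4137 values lay below the controls, by a margin smaller than the spread among controls. The difference was -0.19 ± 0.11 (limma adjusted p = 0.375, 95% confidence interval -0.44 to 0.06), and -0.20 without GYY4137 replicate 3. The groups overlapped on the second cpg-2 probe set, where the difference was -0.10 ± 0.11. The cpg-2 to cpg-1 difference within arrays was 0.85 ± 0.20 on the GYY4137 arrays and 1.01 ± 0.20 on the control arrays (SD, n = 3 each, exact permutation p = 0.4).

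**Figure D3:**
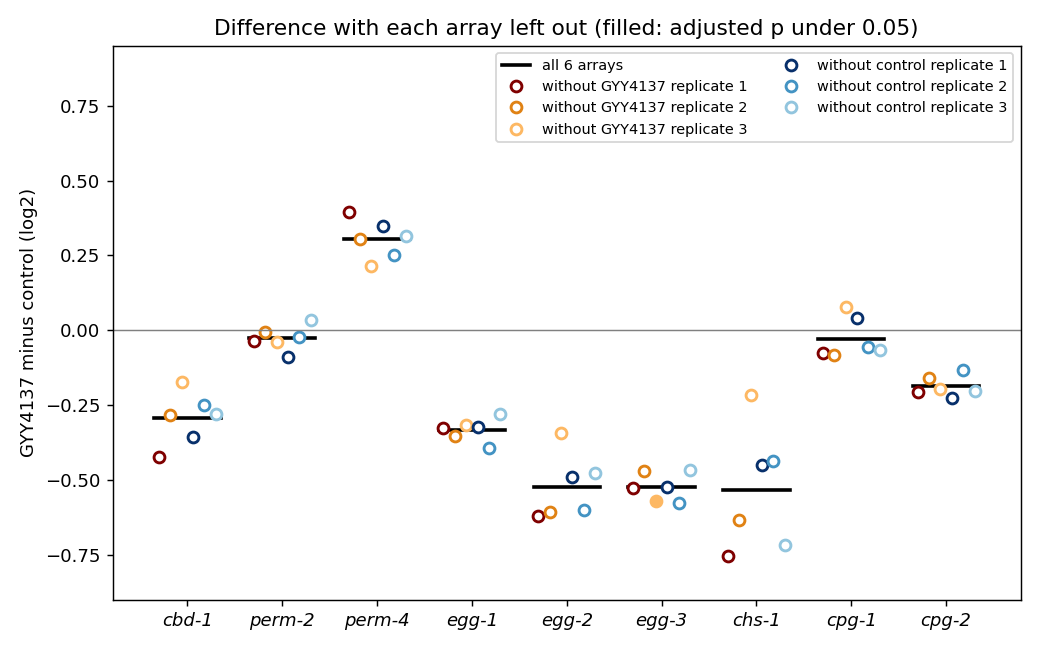
The difference of GYY4137 minus control (log2) for each gene with all 6 arrays (black bar) and with each array left out in turn (circles, filled where the limma adjusted p was under 0.05). Only egg-3 without GYY4137 replicate 3 is filled; chs-1 ranges from -0.75 to -0.22, egg-1 from -0.39 to -0.28, and cpg-1 and perm-2 fall on both sides of 0.

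The 9 genes differed in how they stood on GYY4137 replicate 3 against the mean of the other GYY4137 arrays. Chs-1 was at -0.96 relative to them, egg-2 at -0.54, cbd-1 at -0.36 and cpg-1 at -0.31. Egg-1, cpg-2 and perm-2 were within 0.05 (-0.05, 0.02 and 0.04), while egg-3 and perm-4 were higher, at 0.15 and 0.27. The median over the 9 genes, taken against the control mean, was -0.10, -0.29 and -0.36 on GYY4137 replicates 1, 2 and 3, and -0.06 to 0.03 on the control arrays. Over all tested probe sets the corresponding medians were -0.01, -0.03 and -0.05 on the GYY4137 arrays. Summed on the linear scale, the signal of the 9 representing probe sets was 7601 to 7916 on the GYY4137 arrays and 8154 to 8330 on the control arrays. The brightest probe sets weigh most in such sums, here and below, so they describe the arrays and do not test the genes jointly.

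Other genes that serve the eggshell were read from related lists. Among 10 tested genes of eggshell assembly and the permeability barrier, 0 were called, beside 1.50% of all tested probe sets. The GYY4137 mean was lower for 7 of them, beside 57.1% of all tested probe sets. Their median difference was -0.05 (0.02 with median centring and -0.13 with array weights). The 3 with the smallest p were perm-5, needed for the lipid-rich permeability barrier (-0.46 ± 0.17), cpg-3, a further chondroitin proteoglycan (-0.22 ± 0.13), and gna-2, which makes a precursor of the chitin building block (-0.43 ± 0.26). Without GYY4137 replicate 3, perm-5 was at -0.28 and gna-2 at -0.12. Perm-5 was the only one of the 10 whose groups did not overlap, beside 15.6% of all tested probe sets, at 7.91, 7.84 and 7.33 on the GYY4137 arrays and 8.03, 8.17 and 8.26 on the control arrays. Gna-2 followed chs-1 in being lowest on GYY4137 replicate 3, at 5.97, where the other GYY4137 arrays had 7.08 and 6.69 and the control arrays 7.07, 6.91 and 7.05.

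Genes of hexosamine and chondroitin synthesis supply the sugars for chitin and for the chains on CPG-1 and CPG-2. Of 11 tested, 0 were called, beside 1.50% of all tested probe sets. A lower GYY4137 mean was found for 10, beside 57.1% of all tested probe sets. The median difference was -0.20 (-0.13 with median centring and -0.11 with no filter). The groups did not overlap, with GYY4137 lower, for 4 of the 11 (sqv-1, sqv-2, sqv-5 and sqv-7), beside 15.6% of all tested probe sets. Sqv-1 had the largest difference of the list, -0.90 ± 0.35 (limma adjusted p = 0.258), which was -0.44 without GYY4137 replicate 3. The chondroitin synthase gene sqv-5 had 7.73, 7.76 and 7.16 on the GYY4137 arrays and 8.07, 8.24 and 8.23 on the control arrays, a difference of -0.63 ± 0.18 (limma adjusted p = 0.148). Sqv-7, a nucleotide-sugar transporter gene, was at -0.38 ± 0.14, and sqv-2, a galactosyltransferase gene that acts in the linker of these chains, at -0.33 ± 0.13.

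Of 20 tested genes of egg activation and cortical granules, 1 was called, lower, and 19 did not pass, beside 1.50% called over all tested probe sets. It was cav-1, the caveolin gene whose product sits on cortical granules of the oocyte in this worm. Its values were 5.12, 5.10 and 5.26 on the GYY4137 arrays and 5.95, 5.90 and 5.77 on the control arrays, with all GYY4137 values well below the controls. Cav-1 fell by 0.71 ± 0.11 on the log2 scale (limma adjusted p = 0.0344). A second cav-1 probe set, near the floor, overlapped between groups and gave -0.46 ± 0.17 (limma adjusted p = 0.247). The call ended with no filter, under either other normalization, with the replicate number as a block and without any single array except GYY4137 replicate 3, while the difference stayed between -0.80 and -0.64. The kinase gene mbk-2, whose product EGG-3 holds at the oocyte cortex, differed by -0.29 ± 0.18. Over these 20 genes 18 had a lower GYY4137 mean, beside 57.1% of all tested probe sets. Their median was -0.11, which was -0.07 without GYY4137 replicate 3, -0.20 without control replicate 3 and -0.04 with median centring. The genes egg-4 and egg-5, which act with egg-3, are not described here, because no probe set is annotated to either alone.

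The labelled stage and the cells that could carry these transcripts were checked with marker lists. All 11 oocyte markers were tested and had a lower GYY4137 mean (median -0.22), beside 57.1% of all tested probe sets. Of the 11, 0 were called, beside 1.50% of all tested probe sets, and 4 were without overlap, beside 15.6%. The median was -0.14 without GYY4137 replicate 3 and -0.14 with median centring. Their summed linear signal was 4470 to 5062 on the GYY4137 arrays and 5401 to 5789 on the control arrays. The RNA-binding genes spn-4, mex-3 and oma-2, all expressed in oocytes, differed by -0.51 ± 0.13, -0.48 ± 0.13 and -0.29 ± 0.12. Of 16 general germline markers 15 had a lower GYY4137 mean (median -0.13, and -0.05 with median centring), beside 57.1% of all tested probe sets. Of the 16, 0 were called, beside 1.50%. Those lower included the helicase gene glh-4 at -0.25 ± 0.10, syp-1 at -0.57 ± 0.27 (-0.25 without GYY4137 replicate 3) and cpb-3 at -0.24 ± 0.13. Of 5 yolk protein genes, made in the adult intestine, 0 were called, beside 1.50% of all tested probe sets. Their median was -0.07, with vit-1 at -0.41 ± 0.12, vit-2 at 0.10 ± 0.12 and vit-5 at -0.08 ± 0.10. The yolk median turned to 0.0018 without GYY4137 replicate 3 and to 0.0022 with median centring.

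Sperm markers stood on the other side. All 26 tested had a higher GYY4137 mean (median 0.41, and 0.25 without GYY4137 replicate 3), while 57.1% of all tested probe sets had a lower one. These were msp genes together with gsp-3, gsp-4, ssp-16, ssq-2 and ssq-3, and no spe, fer or trp gene of the list was tested. The gene spe-11 was counted in the egg activation list instead. Near the floor, it differed by -0.23 ± 0.26, and by 0.08 without GYY4137 replicate 3. Of the 26, 0 were called, beside 1.50% of all tested probe sets. Ssq-2, msp-33 and msp-142 differed by 0.91 ± 0.21, 0.46 ± 0.12 and 0.73 ± 0.19. Without GYY4137 replicate 3, where 4.73% of all tested probe sets were called, ssq-2 was at 0.74 and msp-142 at 0.51, and both were called (limma adjusted p = 0.0468 and 0.0280). The groups did not overlap for 18 of them, with GYY4137 higher, beside 13.4% of all tested probe sets, and many msp probe sets can read one another's transcripts. The summed linear signal was 44505 to 60167 on the GYY4137 arrays and 38906 to 43341 on the control arrays. The part of oocyte, germline and sperm content in the differences of the 9 genes was not tested. All oocyte, general germline and yolk genes with a probe set of their own passed the filter on low values, as did 26 of 30 sperm genes.

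Oocyte and eggshell transcripts are made from the end of larval life onward, and the 9 genes had levels well above the floor on all 6 arrays. The 8 early embryonic genes on the array, such as end-1 and end-3 of the endoderm, stayed below the floor of 4 on all 6 arrays, with no value above 3.02. Adult cuticle markers were present (bli-2 at 0.54 ± 0.17, bli-1 at 0.23 ± 0.17, which was 0.07 without GYY4137 replicate 3, and col-19 at -0.10 ± 0.10). Of these 3, 0 were called, beside 1.50% of all tested probe sets. Of 4 gonad sheath markers 2 were tested, and inx-8 and inx-9 were at 0.06 ± 0.12 (0.0073 without GYY4137 replicate 3) and -0.01 ± 0.10. Col-19 averaged 9.65 on the GYY4137 arrays and 9.75 on the control arrays. The group means of the yolk genes ran from 10.45 (vit-1, GYY4137) to 12.75 (vit-4, control), all above the floor of 4. Transcripts of the adult intestine and cuticle were thus present in both groups, beside the labelled stage of L4 larvae. These values do not fix the stage of the worms when they were collected.

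**Figure D4:**
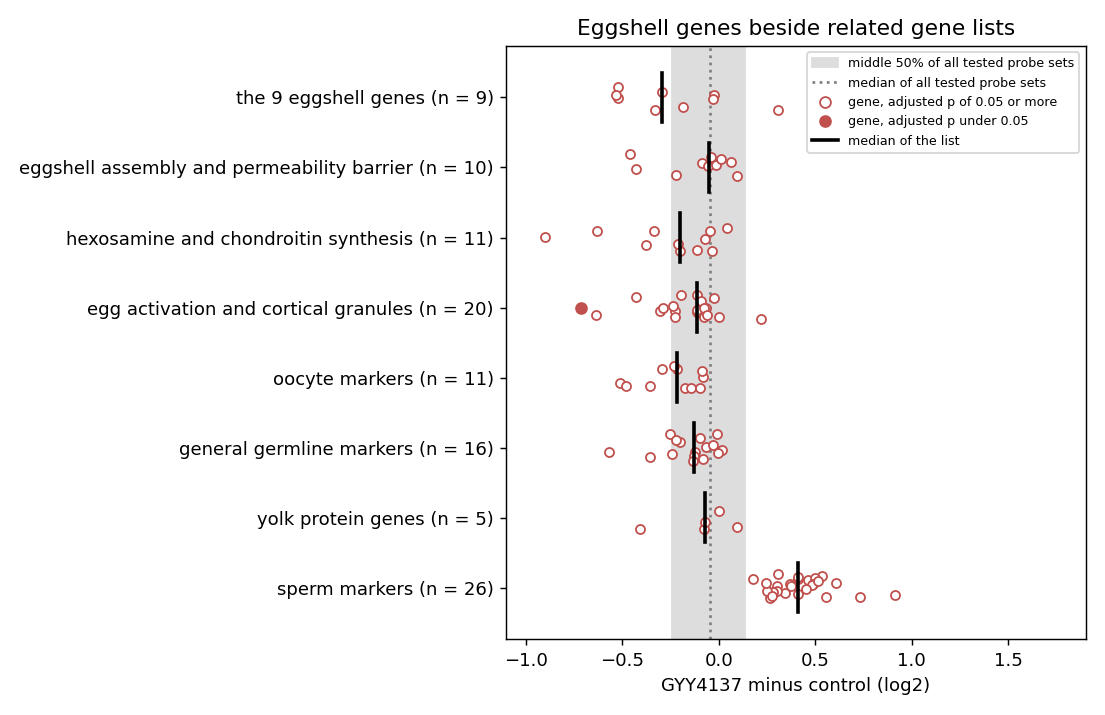
The difference of GYY4137 minus control (log2, horizontal axis) for each tested gene of the 9 eggshell genes and of 7 related lists, with 1 point per gene, a black bar for the median of the list and a grey band for the middle 50% of all tested probe sets (-0.24 to 0.13). The median of the 9 genes (-0.29) lies left of the band, cav-1 is the only filled point, and the sperm markers lie right of 0.

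The genes whose profile was most like the mean profile of the 9 were found by Pearson correlation over the 6 arrays, among 4455 probe sets with 1 gene and a range of at least 0.5. The first 8 were atg-18 (r = 0.994), cert-1 (0.992), pptr-2 (0.992), scp-1 (0.992), spn-4 (0.990), cpna-2 (0.990), gcs-1 (0.988) and suro-1 (0.988). Of these spn-4 is one of the oocyte markers, and gcs-1 encodes the first enzyme of glutathione synthesis. All 8 had a lower GYY4137 mean and their lowest value on GYY4137 replicate 3. The choice by likeness largely fixed this, since the mean profile has the same shape. None of the 8 was called (limma adjusted p from 0.126 to 0.222). The arrays share both the group difference and the array that stood apart, so these correlations describe the 6 arrays only. Within the 9, egg-2 was most like the mean of the other 8 (r = 0.948), perm-2 was unrelated to it (0.01) and perm-4 ran opposite to it (-0.939).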

How the data were processed

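RNA of 6 whole-worm samples, 3 exposed to GYY4137 and 3 controls, was measured on Affymetrix C. elegans arrays. The authors deposited 1 log2 value per probe set and array, made with GCRMA per the submitters' processing notes; the log2 scale is read from the values, and no version or further filter is given in the sources used here. Probe sets were named from the platform annotation, and symbols were brought up to date with RefSeq's gene table for assembly WBcel235, which served only for names, chromosomes and gene order. No sequences were printed, and the promoter motif search that had been planned was not run, since no sequence was used here.

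Of 22625 probe sets, 77 array controls were left out, and the 8053 above 4 on at least 3 arrays entered a two-sided limma fit (limma 3.58.1, R 4.3.3; lmFit, then eBayes with no trend), with Benjamini-Hochberg adjustment over all of them. Errors beside differences are standard errors from this fit; other ± are SD. The procedure was run on simulated data with planted changes larger than any difference of the 9 genes and with no outlying array. That run does not show how well differences as small as these are found. The members and gene lists were chosen with earlier results of these data known. All 9 genes are named; of the other lists, the called genes, or else the 3 with the smallest p; and the 8 most alike genes. Mbk-2, sqv-1, spe-11, further probe sets and the pairs were named after their values were seen. Alternatives changed the filter (none, or a floor of 6), the normalization (quantile, or median centring), the variance model (intensity trend, array weights, replicate block), the arrays (each left out), the summary of a gene (mean of its probe sets) and the threshold (0.10). The number of arrays limits the precision. Replicates were not identical on any pair of arrays.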

Additional observations from a re-analysis of the deposited data

How the results depend on the processing

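Across the 14 alternatives other than the threshold, 116 of 126 values for the 9 genes kept their sign and their side of the threshold. With array weights egg-1, egg-2 and egg-3 were called (-0.30, -0.39 and -0.60); egg-3 was also called without GYY4137 replicate 3 and at a threshold of 0.10, and over the leave-outs it ran from -0.58 to -0.47. Cpg-1 turned to 0.045 with median centring and to 0.022 with array weights, and ran from -0.084 to 0.076 over the leave-outs; perm-2 turned to 0.046 with median centring and ran from -0.090 to 0.033. The cause was not tested. The 9 genes held 3 calls with array weights, beside 17.2% of all tested probe sets, and 1 at a threshold of 0.10, beside 3.32%. Over the leave-outs they held 0 to 1, with the 1 falling without GYY4137 replicate 3, beside 4.73%.

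Over all tested probe sets, 121 were called, against 33 with no filter, 80 with a floor of 6, 1389 with array weights, 267 at a threshold of 0.10 and 12 to 381 over the leave-outs (381 without GYY4137 replicate 3; 12, 21 and 19 without control replicate 1, 2 or 3; 63 and 27 without GYY4137 replicate 1 or 2). Whether the replicate numbers pair the samples is not settled. The correlations of same-numbered deviations were 0.108, -0.02 and 0.05, but 3 arrays per group are too few to decide it. With the replicate number as a block 73 were called, of the 9 genes again 0, and of the egg activation list 0. At an unadjusted p under 0.05 (limma) 1555 probe sets passed with the block and 1427 without it.

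The egg activation list held 1 call (cav-1), and 0 with no filter, a floor of 6 (where cav-1 was not tested), quantile normalization, median centring or the mean over probe sets, 2 with array weights and 0 to 1 over the leave-outs. With array weights, which called 17.2% of all tested probe sets, 16 of 26 sperm, 3 of 11 hexosamine and chondroitin, 1 of 11 oocyte, 1 of 16 germline, 1 of 5 yolk and 1 of 3 adult cuticle genes were called. Sperm calls were 1 at a threshold of 0.10, beside 3.32% of all tested probe sets. Over the leave-outs they were 0 to 2, with the 2 falling without GYY4137 replicate 3, beside 4.73%.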

Other observations

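Genes that lie next to the 9 on the chromosome were read as well, where the array holds them above the floor, besides perm-2 and perm-4, which adjoin each other. The cbd-1 neighbour sec-31, a coat protein gene of the secretory pathway, differed by -0.31 ± 0.16, and the egg-1 neighbour wrm-1, a beta-catenin gene, by -0.32 ± 0.16, with means near the floor (4.11 on the GYY4137 arrays and 4.43 on the control arrays). The chs-1 neighbours T25G3.1 and T25G3.3 were at -0.07 ± 0.16 and 0.02 ± 0.15, and the cpg-1 neighbour atf-7, a transcription factor gene, at -0.03 ± 0.13. None passed (limma adjusted p from 0.338 to 0.960).

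Chitin-degrading enzymes and the other chitin synthase were little represented. Of chs-2, which serves the pharynx, and 4 chitinase genes, 2 were tested: cht-3 was at 7.39 ± 0.41 on the GYY4137 arrays and 7.65 ± 0.05 on the control arrays (SD, n = 3 each), a difference of -0.26 that was -0.04 without GYY4137 replicate 3, and cht-1 at 4.42 ± 0.03 and 4.46 ± 0.10. Neither was called (limma adjusted p = 0.483 and 0.862).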
